A study of Mus musculus with 7 samples.

Results

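The 10 genes described here encode PIWI, Tudor and helicase proteins that mouse germ cells use to make and hold piRNAs, short RNAs that guide the silencing of transposons and of some messenger RNAs. They are Piwil1, Piwil2, Tdrd1, Tdrd5, Tdrd6, Tdrd7, Tdrd9, Ddx4, Ddx25 and Mael, taken by name from the platform annotation. Each was read by 1 probe set that carried its symbol alone, so 10 of the 23493 probe sets with 1 symbol are described, and 10 of 22154 distinct genes. No probe set that names several genes held any of them.

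RNA came from sperm and was hybridised to 7 expression arrays. The C57BL/6 control group had 1 array, from extracts of 5 males. The TG3 group, males with a KDM1A transgene in generation 3, had 3 arrays, and so had nonTG3, their littermates without it. Each of those 6 arrays held pooled extracts of 4 males. The line, meaning TG3 and nonTG3 together, descends from C57BL/6 zygotes injected with the construct and from 2 transgenic founder females. Its transgene passed through heterozygous males mated to C57BL/6 females, so nonTG3 males had transgenic fathers too. The promoter of the construct, the founder behind each pool and the ages of the males are not stated in the labels. Whether pools had males in common is also unstated, and p-values below reflect pool-to-pool spread, part of which may be technical.

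In mouse spermatocytes and round spermatids, PIWI proteins loaded with piRNAs are tethered by Tudor proteins, which bind methylated arginines on PIWI proteins. Much of this machinery gathers in perinuclear granules: the intermitochondrial cement of spermatocytes and the chromatoid body of round spermatids, a store and processing site for RNA. Sperm are nearly silent in transcription, so their messenger RNAs are largely left over from these earlier stages.

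Values are log2 intensities as deposited by the authors. Array medians lay between 3.52 and 3.61, and the correlation of an array with its closest other array was 0.961 to 0.983 across probe sets. Kdm1a averaged 5.20 ± 0.12 in TG3 and 5.20 ± 0.12 in nonTG3 (SDs over 3 pools each), with 5.64 on the C57BL/6 array, and whether its probe set reads the transgene is not known. The sperm label was set against marker genes. Late spermatid and sperm markers averaged 10.62 on C57BL/6 and 9.72 to 10.15 on the line's arrays. Of their 9 probe sets, 4 read higher on C57BL/6 than on all of the line's arrays and 0 lower. Over all probe sets these shares were 14.3% and 18.2%. Tnp1, named after its values were seen, read 12.40 on C57BL/6 and 9.23 to 9.85 in the line, while Smcp read 11.88 against 11.56 to 12.11. Of the spermatogonia markers, 5 of 8 probe sets lay below the lowest array median on every array. The 8 epididymal epithelium markers averaged 5.03 on C57BL/6 and 4.93 to 5.87 in the line, with 1 of 10 probe sets below that median on every array. For the 8 leukocyte markers the averages were 3.79 and 3.41 to 3.98, with 3 of 8 probe sets below it on every array. Some other markers stood apart on the C57BL/6 array. The 6 measured pachytene spermatocyte markers averaged 5.37 there, against 3.46 to 3.92 in TG3 and 3.66 to 3.98 in nonTG3, and 5 of their 6 probe sets were above all of the line's arrays. The 4 measured Leydig cell markers averaged 4.63 there against 2.59 to 2.84 in the line, and the 7 Sertoli cell markers 4.57 against 3.77 to 4.01, with 3 of their 7 probe sets above all of the line's arrays and 3 below. Most of that Sertoli gap lay in Cst9, named after its values were seen, at 7.66 on C57BL/6 and 2.32 to 3.30 in the line. At a limma adjusted p under 0.05, 2 of 9 late spermatid, 3 of 6 pachytene, 4 of 5 Leydig and 1 of 7 Sertoli probe sets were lower in the line. The share over all probe sets was 2.85%. In bulk RNA, fewer cells of a type and less RNA per cell cannot be told apart. The part of these markers in the results below was not tested.

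Tdrd6, Ddx25 and Mael stood far lower in sperm of the line than on the C57BL/6 array, while the other 7 genes lay within about 1 log2 unit of it on average. The difference passed the test for Tdrd6 and Ddx25 and missed it for Mael. In C57BL/6, 8 of the 10 genes read above all 6 arrays of the line, as did 14.3% of all probe sets tested. Of the 10 genes, 2 were called at a limma adjusted p under 0.05, against 3.02% of all probe sets. Both were lower, against 2.85%, and 0 were higher, against 0.17%. A mean lower by at least 1 log2 unit was found for 4 of the 10 (these 3 and Ddx4) and for 3.86% of all probe sets. The median change over the 10 genes was -0.47 log2 units, and over all probe sets 0.04. With 1 array, C57BL/6 carries no spread of its own, and the fit takes that of the other groups for it. Its 3 contrasts (the line, TG3 and nonTG3 against it) share that array.

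**Figure D1:**
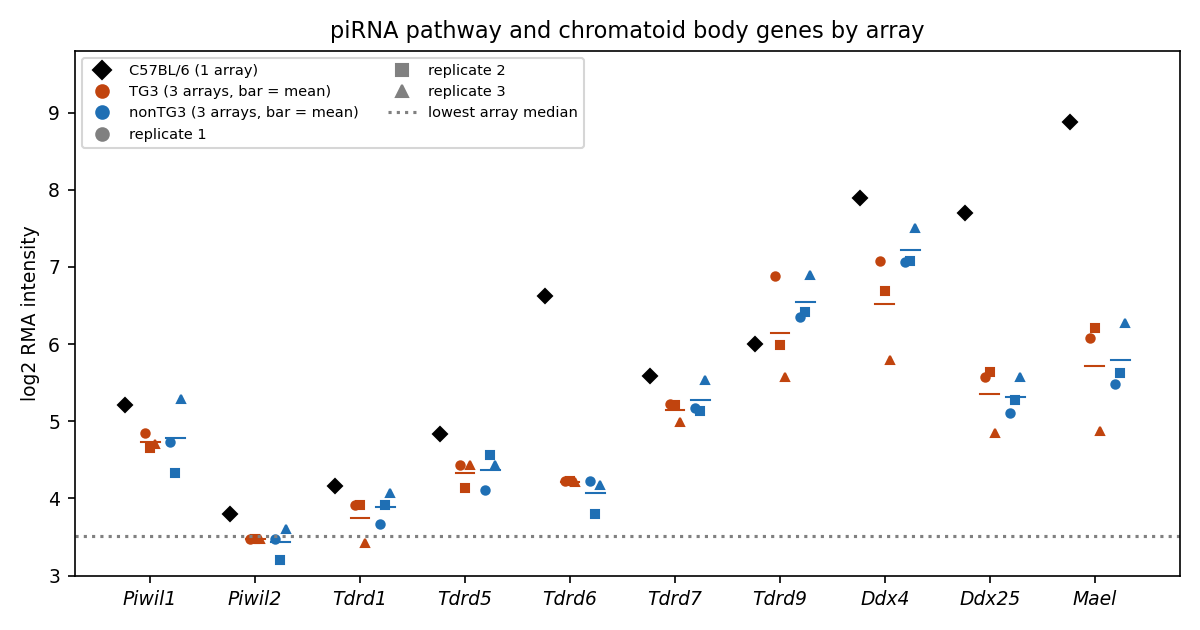
Log2 RMA intensity (vertical axis) of the 10 genes on each of the 7 arrays. The black diamond is the lone C57BL/6 array, orange and blue symbols are the TG3 and nonTG3 replicates with their means as bars, and the dotted line is the lowest array median, 3.52. Tdrd6, Ddx25 and Mael show the widest gap below the diamond, and the TG3 and nonTG3 symbols overlap for every gene.

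The PIWI genes showed small differences that did not pass the test. Piwil1 encodes MIWI, the PIWI protein of pachytene spermatocytes and round spermatids. Its probe set read 5.21 on C57BL/6, 4.85, 4.65 and 4.71 on the TG3 pools (replicates 1, 2 and 3) and 4.73, 4.33 and 5.29 on the nonTG3 pools in the same order. The C57BL/6 value lay inside the range of the line, below nonTG3 replicate 3. The change in the line was -0.45 log2 units (95% interval -1.27 to 0.37; limma adjusted p = 0.821). Piwil2 encodes MILI, which is present from earlier germ cell stages and also cuts transposon RNA. It read 3.80 on C57BL/6 and 3.21 to 3.61 in the line, with the same value, 3.48, on 4 of the 6 arrays. On 5 of the 7 arrays it was below the lowest array median of 3.52. Whether such dim values lie above background was not measured, so no fold is given for it (limma adjusted p = 0.490).

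Among the Tudor genes, Tdrd6 separated from the rest. TDRD6 is a large multi-Tudor protein needed for the architecture of the chromatoid body. Its probe set read 6.62 on C57BL/6, 4.22, 4.22 and 4.21 on the TG3 pools (replicates 1, 2 and 3) and 4.22, 3.80 and 4.18 on the nonTG3 pools in that order. All 6 arrays of the line were below C57BL/6 by at least 2.40 log2 units, and carriers and littermates overlapped. The fall was 2.48 log2 units with an SE of 0.17 (limma adjusted p = 0.00368), or 5.59-fold. Refitted without each TG3 or nonTG3 array in turn, its adjusted p stayed between 0.0113 and 0.0215. Exactly equal values on 3 arrays of the line, which the summary step of RMA can give, narrow the spread behind this p. Tdrd6 had 4 distinct values over these 6 arrays.

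The other Tudor genes did not pass. TDRD1 binds MILI in the intermitochondrial cement, and Tdrd1 read 4.16 on C57BL/6 and 3.42 to 4.07 in the line. TDRD5 acts in the processing of pachytene piRNA precursors, and Tdrd5 read 4.83 against 4.10 to 4.56. TDRD7 takes part in remodelling the chromatoid body, and Tdrd7 read 5.59 against 4.99 to 5.53. In all 3 genes C57BL/6 was above every array of the line, yet the gap to the highest of them was only 0.06 to 0.27 log2 units. Their changes were -0.35, -0.48 and -0.38 log2 units (limma adjusted p of 0.785, 0.445 and 0.553).

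TDRD9 joins a helicase to a Tudor domain and works with nuclear PIWI protein in fetal germ cells. Tdrd9 read 6.01 on C57BL/6, 6.89, 5.99 and 5.57 on the TG3 pools (replicates 1, 2 and 3) and 6.35, 6.41 and 6.90 on the nonTG3 pools. It was the 1 gene of the 10 whose mean was higher in the line, by 0.34 log2 units (95% interval -0.85 to 1.54; limma adjusted p = 1). Of its 6 arrays in the line, 4 were above C57BL/6 and 2 below.

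The helicases differed in the size of their change. DDX4, the mouse VASA homolog, is an RNA helicase used as a germ cell marker. Ddx4 read 7.89 on C57BL/6, 7.08, 6.68 and 5.79 on the TG3 pools (replicates 1, 2 and 3) and 7.06, 7.07 and 7.51 on the nonTG3 pools. All 6 arrays of the line were below C57BL/6, with TG3 replicate 3 the lowest. The change of -1.02 log2 units did not pass (95% interval -2.17 to 0.13; limma adjusted p = 0.488). DDX25, also called GRTH, is a testis helicase that exports messenger RNAs to the chromatoid body and is needed to complete spermatid development. Ddx25 read 7.70 on C57BL/6, 5.57, 5.64 and 4.85 on the TG3 pools (replicates 1, 2 and 3) and 5.11, 5.28 and 5.57 on the nonTG3 pools. The line lay at least 2.06 log2 units below C57BL/6. The fall was 2.36 log2 units with an SE of 0.33 (limma adjusted p = 0.0249), or 5.14-fold.

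The size of the Ddx25 change held without each array, between -2.43 and -2.24 log2 units, but its call did not. The limma adjusted p was 0.0655 and 0.0615 without TG3 replicates 1 and 2, and 0.0755, 0.0961 and 0.0637 without nonTG3 replicates 1, 2 and 3. Only without TG3 replicate 3, its lowest array, did the call remain among these 6 fits (adjusted p = 0.0238).

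Mael encodes maelstrom, a protein of the chromatoid body and of nuclear silencing bodies. It read 8.88 on C57BL/6, 6.08, 6.21 and 4.88 on the TG3 pools (replicates 1, 2 and 3) and 5.48, 5.62 and 6.27 on the nonTG3 pools. Every array of the line was below C57BL/6, by 2.60 to 4.00 log2 units, and the line's own range was wide. The change of -3.12 log2 units (SE 0.55; 95% interval -4.49 to -1.75) was the largest of the 10, at a limma adjusted p of 0.0519. Of 16 alternatives, 8 brought the adjusted p under 0.05, and the range over all 16 was 0.0144, with cyclic loess, to 0.201, without TG3 replicate 1 and nonTG3 replicate 3 together, the pools lowest in mitochondrial RNA. Of the 6 fits without 1 array, Mael was called in that without TG3 replicate 3, its lowest array (change -2.91, adjusted p = 0.0404), and not in the other 5 (adjusted p up to 0.156).

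**Figure D2:**
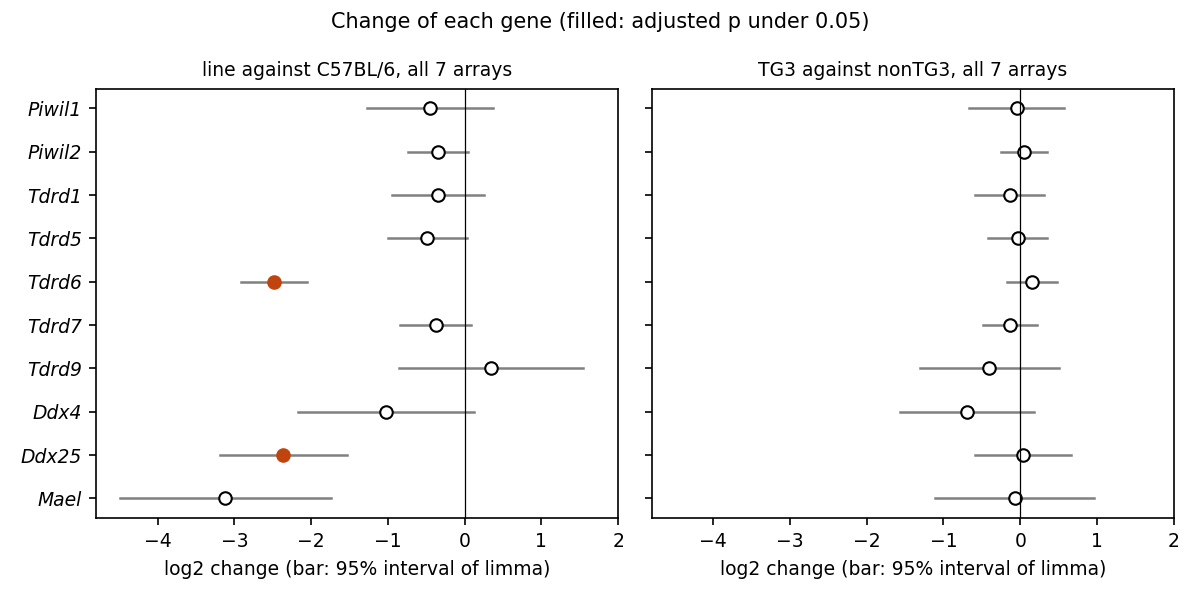
Log2 change of each gene (horizontal axis, point) with its 95% interval from limma (bar), for the line against C57BL/6 on the left and TG3 against nonTG3 on the right. Filled points passed an adjusted p of 0.05, which Tdrd6 and Ddx25 did on the left and no gene on the right; the Mael interval on the left lies wholly below 0, although its adjusted p was 0.0519.

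The sequences before the starts of Ddx25 and Mael are shown because only these genes had a single listed start that is also the gene's outer limit. They are from RefSeq on GRCm38.p6, read 5′ to 3′ on the gene's strand and end 1 base before the start, and capitals mark motif matches. Mael is given for 250 bases (chr1:166238745-166238994, minus strand). Ddx25 is given for the 89 bases that separate it from Pus3, a gene on the other side (chr9:35558471-35558559, minus strand).
Mael: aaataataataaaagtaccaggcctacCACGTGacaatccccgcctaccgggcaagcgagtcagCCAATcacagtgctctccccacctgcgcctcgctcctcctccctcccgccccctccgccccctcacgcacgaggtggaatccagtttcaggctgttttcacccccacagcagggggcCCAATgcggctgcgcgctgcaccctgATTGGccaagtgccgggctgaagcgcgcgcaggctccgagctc
Ddx25: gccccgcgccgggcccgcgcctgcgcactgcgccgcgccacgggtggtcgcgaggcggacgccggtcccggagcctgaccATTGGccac

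The motifs searched, on both strands, were the E-box CACGTG, the CCAAT box CCAAT, the MYB core CAGTTG and the CRE TGACGTCA, and none of the matches overlapped. The Mael window held 1 E-box and 3 CCAAT boxes, and the Ddx25 window 1 CCAAT box. Of 32851 windows of 250 bases in the RefSeq table, 6.02% held the E-box, 33.85% the CCAAT box, 11.1% the MYB core and 1.55% the CRE. At 89 bases the share with a CCAAT box was 17.2%. Of the 10 genes 8 had a window in the table, Tdrd6 and Piwil2 being the others, and 6 had a single start. Among those 6, the E-box stood in 4 (Piwil1, Tdrd9, Ddx4 and Mael), the CCAAT box in 5, the MYB core in 1 (Piwil1) and the CRE in 0. For Piwil1, Tdrd5, Tdrd9 and Ddx4 the start used lies inside the annotated gene, so part or all of the window does too. A match describes these letters in this window, not a bound site.

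Between carriers and littermates, none of the 10 genes passed the test. TG3 against nonTG3 asks whether sperm RNA differs with the transgene itself. limma called 0 of the 10, with a smallest adjusted p of 0.923, and 0 of the 10 had an unadjusted p under 0.05. Over all probe sets the share called was 0% and 559 had an unadjusted p under 0.05. The arrays of TG3 and nonTG3 overlapped for all 10 genes, where 4.12% of all probe sets had groups that did not overlap. Changes ran from -0.69 to 0.15 log2 units with a median of -0.06, against 0.00 over all probe sets.

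The widest difference was that of Ddx4, which had TG3 and nonTG3 means of 6.52 ± 0.66 and 7.21 ± 0.25 (SDs over 3 pools each). The change of -0.69 log2 units had a 95% interval of -1.56 to 0.17 (limma adjusted p = 0.923). It ran from -0.97 without TG3 replicate 1 to -0.33 without TG3 replicate 3, and in the latter case Mael, at 0.35, differed more. The group means of Tdrd6 were 4.22 ± 0.01 and 4.07 ± 0.23 (SDs over 3 pools each), and the 95% interval of the difference was -0.17 to 0.48. For Mael the means were 5.72 ± 0.74 and 5.79 ± 0.42 (SDs over 3 pools each), with an interval of -1.11 to 0.97. For Ddx25 the interval was -0.59 to 0.66. The intervals of Mael, Ddx25, Ddx4, Tdrd9, Piwil1 and Tdrd1 leave room for differences of more than 0.5 log2 units.

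Set side by side against the shared C57BL/6 array, carriers and littermates gave like changes for the 3 genes with the largest falls. Tdrd6 fell by 2.41 log2 units in TG3 and by 2.56 in nonTG3 (limma adjusted p of 0.00580 and 0.00495). Ddx25 fell by 2.34 and by 2.38 (limma adjusted p of 0.0356 and 0.0340). Mael had changes of -3.15 and -3.08 that were not called (limma adjusted p of 0.0677 and 0.0743). In TG3, 2 of the 10 genes were called, Tdrd6 and Ddx25, against 2.53% of all probe sets (2.41% lower and 0.119% higher). In nonTG3 the same 2 were called, against 2.53% (2.43% lower and 0.0936% higher). With only the arrays of the groups compared, 0 of the 10 were called in either contrast, as were 0 and 54 of all probe sets for TG3 and nonTG3.

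**Figure D3:**
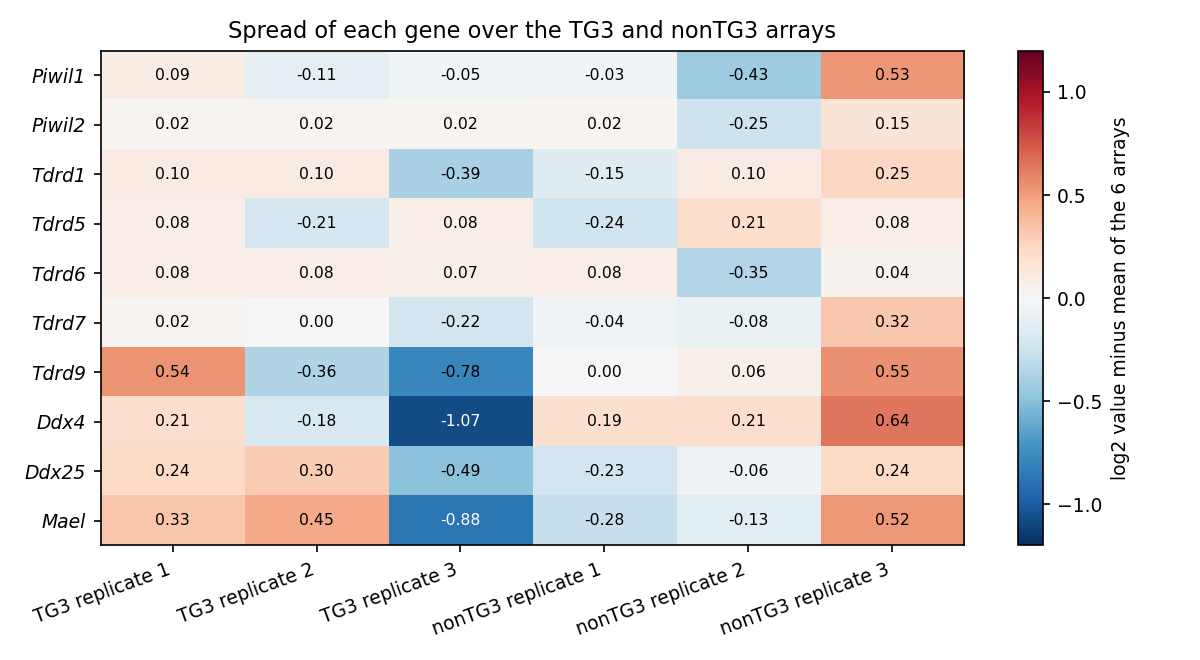
Log2 value of each gene on each TG3 and nonTG3 array (columns) minus its mean over these 6 arrays, as colour and number. TG3 replicate 3 holds the lowest value of 6 genes, among them Ddx4 and Mael, and nonTG3 replicate 3 the highest of 7.

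Within the line, pools of the same genotype also differed from each other. How the spread divides between pools and genotypes was not tested. TG3 replicate 3 was the lowest array for 6 of the 10 genes, and nonTG3 replicate 3 was the highest for 7. The shares over all probe sets were not counted, so whether this is particular to these genes was not tested. The mean over the 10 genes was 0.37 log2 units below the line's average on TG3 replicate 3 (-0.37) and 0.33 above it on nonTG3 replicate 3. The genes differed in their spread. Tdrd6, Piwil2, Tdrd7 and Tdrd5 had SDs of 0.17, 0.13, 0.18 and 0.18 over the 6 arrays. Ddx4, Mael and Tdrd9 had 0.59, 0.54 and 0.52.

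The 10 genes form 45 pairs, of which 37 had a positive Pearson's r over the 6 arrays, with a median of 0.37 and a range of -0.60 to 0.99. Ddx25 and Mael gave the highest, 0.986, and Tdrd9 and Ddx4 gave 0.911. These are descriptions over 6 arrays that share their normalization, and the share of positive pairs among all probe sets was not counted. The mean of the 10 genes had an r of -0.77 with the mean of 7 mitochondrially encoded genes, 0.73 with that of 6 pachytene spermatocyte markers and 0.67 with that of 8 fibroblast, muscle and vessel markers. No r was computed with the other marker lists. Of the pachytene markers, Sycp1 and Sycp2 lay below the lowest array median on all 6 arrays of the line, and Hormad1 on 4. Gene by gene, r with the mitochondrial mean was negative for 9 of the 10, from -0.87 for Tdrd9 to -0.07 for Piwil2. For Tdrd6 it was 0.21. The share of negative r over all probe sets was not counted. The mitochondrial mean was 8.99 on TG3 replicate 1 and 9.13 on nonTG3 replicate 3 and 10.02 to 11.55 on the other 4 arrays. The fibroblast, muscle and vessel mean was 5.91 and 5.60 on those same arrays and 4.57 to 5.02 on the others. Without both of them, with 2 residual degrees of freedom left, limma called 0 of all probe sets in the line against C57BL/6. The changes there were -2.51 for Tdrd6, -2.48 for Ddx25 and -3.33 for Mael, so the sizes were as large as with all arrays.

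The genes outside the pathway whose profiles over the 6 arrays were most like the mean of the 10 were Trim36, Saysd1, Slc25a41, Rtel1 and Ddx58. Their Pearson's r was 0.999, 0.993, 0.993, 0.992 and 0.992, the highest of 10691 probe sets compared. Trim36, a ubiquitin ligase gene, read 5.48 on TG3 replicate 3 and 6.50 on nonTG3 replicate 3, its lowest and highest values in the line, all of them below C57BL/6. Rtel1 and Ddx58 read 5.72 and 3.76 on C57BL/6, inside their range in the line.

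The wider pathway was read from 36 probe sets for 35 of 36 listed genes, Fkbp6 being the one not matched. In the line against C57BL/6, 3 of the 36 were lower and 0 higher at a limma adjusted p under 0.05, or 2 of 21 probe sets for piRNA production and silencing and 1 of 15 for other Tudor and granule proteins. Over all probe sets 2.85% were called lower and 0.17% higher. The medians of these lists were -0.01 and 0.01 log2 units. Ybx2 encodes a germ cell protein that stores messenger RNA. It read 7.85 on C57BL/6, 6.67, 6.73 and 6.67 on the TG3 pools (replicates 1, 2 and 3) and 6.67, 6.52 and 6.67 on the nonTG3 pools. It fell 2.29-fold (limma adjusted p = 0.00643), with 4 equal values in the line.

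Tdrd12, whose protein acts in secondary piRNA production, read 4.70 on C57BL/6 and 3.68 to 3.89 in the line. It fell by 0.91 log2 units (limma adjusted p = 0.0168), with 3 equal values in nonTG3, and was not called without nonTG3 replicates 1 or 2 (adjusted p of 0.0514 and 0.0584). Asz1 encodes GASZ, a mitochondrial scaffold of the intermitochondrial cement. It read 4.35 on C57BL/6 and 2.82 to 3.29 in the line, below the lowest array median, so no fold is given (limma adjusted p = 0.0296). Its call was lost in 5 of the 6 fits without 1 array, those without TG3 replicates 1, 2 and 3 and nonTG3 replicates 1 and 2, with adjusted p up to 0.0911.

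Several further genes of this list had lower readings in the line without passing. Pld6, a mitochondrial endonuclease of piRNA production, read 4.97 on C57BL/6 and 3.81 to 4.25 in the line (limma adjusted p = 0.0814). Mybl1, the gene for A-MYB, which switches on pachytene piRNA genes and several genes of the pathway, read 4.63 against 3.45 to 4.17 (limma adjusted p = 0.176). Rnf17 and Stk31, both with Tudor domains, had changes of -0.86 and -0.76 (limma adjusted p of 0.135 and 0.165). At the other end of the list were Upf1, of nonsense-mediated decay, and Ago2, the microRNA effector, at 0.62 and 0.57, neither of them called. C57BL/6 was above all arrays of the line for 11 of the 36 probe sets and below all for 5, where the shares over all probe sets were 14.3% and 18.2%.

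**Figure D4:**
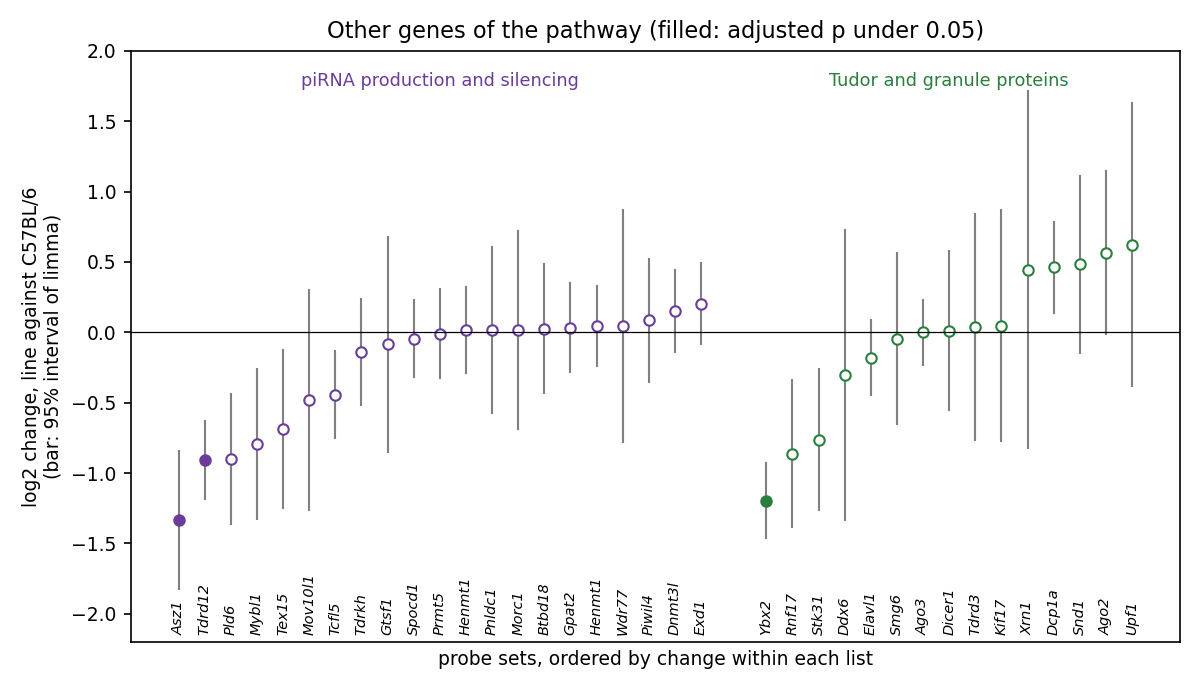
Log2 change in the line against C57BL/6 (vertical axis, point) with its 95% interval (bar) for 36 probe sets of other pathway genes, ordered within the lists for piRNA production and silencing (purple) and for other Tudor and granule proteins (green). Filled points, Asz1, Tdrd12 and Ybx2, passed an adjusted p of 0.05, and most of the others lie near 0.

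In TG3 against nonTG3, 0 of these 36 probe sets were called by limma, as were 0% of all probe sets. An unadjusted p under 0.05 was found for 1 of the 36 and for 2.38% of all probe sets. The smallest unadjusted p-values belonged to Dcp1a, a decapping cofactor, Dicer1, which cuts microRNA precursors, and Xrn1, an exonuclease, all at a limma adjusted p of 0.923. Dcp1a had TG3 and nonTG3 means of 5.69 ± 0.02 and 6.00 ± 0.15 (SDs over 3 pools each). Its groups did not overlap, as was so for 4.12% of all probe sets. Dicer1 and Xrn1 had changes of 0.33 and -0.71 log2 units.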

How the data were processed

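Values were used as deposited, in log2 intensity; for how the authors made them, the submitters' processing notes name R 3.1.0, oligo, RMA and limma. As a method, RMA corrects background, normalizes between arrays and summarises probes, which can give tied values. Ties were not confined to dim probe sets: Ybx2 read 6.67 on 4 arrays of the line. Neither a build nor scan batches are stated. Symbols came from GEO's platform annotation. The members, the lists and the tests were chosen with earlier results of these data known. With limma 3.58.1 in R 4.3.3, group means were estimated from all 7 arrays over the 23493 probe sets with 1 symbol and moderated with eBayes (4 residual and 1.65 prior degrees of freedom). Benjamini-Hochberg adjustment ran over all of them per contrast, and an adjusted p under 0.05 was a call. The fit was tested on simulated data. All 10 genes are named, with every other pathway gene called, the 3 of smallest p per contrast, a few further pathway genes chosen after their values were seen, and the 5 genes of most similar profile. The last came from probe sets at or above the median, without predicted or clone names. Mitochondrial genes were matched under the platform's symbols. Precision is limited by the number of arrays. Figures were drawn with matplotlib 3.10.9.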

Additional observations from a re-analysis of the deposited data

Results flagged for a closer look

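Over the 6 arrays of TG3 and nonTG3, 2 of the 10 genes had an array far from the others by Dixon's ratio of gap to range, above its 95% critical value. Both were lowest on nonTG3 replicate 2. For Tdrd6 the ratio was 0.897, from a reading of 3.80 against 4.18 to 4.22 on the other 5 arrays, 3 of which had equal values. For Piwil2 it was 0.681, from 3.21 against 3.48 to 3.61, with 4 equal values. About 1 in 20 such groups is marked by chance, and ties shorten the remaining range.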

How the results depend on the processing

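The line against C57BL/6 called 2 of the 10 genes, and 1 to 3 when 1 array of the line was left out. TG3 against C57BL/6 called 2, and 1 to 2 so, and nonTG3 against C57BL/6 called 2, and 1 to 3 so. Without both arrays of lowest mitochondrial RNA each of the 3 called 0, as did the groups compared alone for TG3 and for nonTG3. The other pathway genes called, 3, became 1 to 3 without 1 array, 0 without those 2 arrays and 1 without tied probe sets. That last setting dropped probe sets with 4 or fewer distinct values in the line. Ybx2 and Tdrd12, and of the 10 genes Tdrd6, Piwil2 and Tdrd5, were therefore not retested in it. All probe sets called in the line, 710, became 350 to 496 without 1 array, 350 being without nonTG3 replicate 2, and 0 without those 2. Those called in TG3 and nonTG3 against C57BL/6, 595 and 594, became 272 to 333 and 228 to 397 without 1 array, the lowest without TG3 replicate 2 and nonTG3 replicate 2, and 0 in both without those 2 arrays. The cause was not tested beyond the fewer samples. In TG3 against nonTG3 no alternative called any of the 10, and small changes turned sign. Without 1 array the changes ran from -0.28 to 0.21 for Piwil1, -0.064 to 0.14 for Piwil2, -0.24 to 0.028 for Tdrd1, -0.16 to 0.065 for Tdrd5, -0.11 to 0.29 for Ddx25, -0.31 to 0.35 for Mael and -0.095 to 0.0097 for Tdrd12. With array weights Piwil1 and Mael had 0.049 and 0.15, and without those 2 arrays Piwil1 had 0.15. For Tdrd9, TG3 against C57BL/6 gave -0.23 to 0.43 without 1 array and -0.23 without those 2. Whether the replicate number pairs the samples is not known. Deviations from the group means had r of -0.449, 0.0159 and -0.403 between same-numbered arrays. Between differently numbered arrays r ran from -0.282 to 0.552, the highest for TG3 replicate 1 with nonTG3 replicate 3. Deviations within groups of 3 arrays depend on each other, so these r values cannot decide it. With the replicate block, fitted without C57BL/6, 0 of the 10 genes and 0 of all probe sets were called in TG3 against nonTG3, and Ddx4 had -0.69 (adjusted p = 0.995).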
